A study of Mus musculus with 39 samples.

Results

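A period of 5 weeks of voluntary wheel running was compared with housing without a wheel in whole L5 dorsal root ganglia (DRG) of adult mice, as the difference in expression of every probe set on the array. The comparison rests on 6 of the 39 arrays of the series, 3 of L5 DRG from running mice and 3 of L5 DRG from mice without a wheel, and it takes in all 45037 probe sets that are not Affymetrix controls, in both directions. Animals of both groups were adult wild type, with a 129/C57Bl6 strain background in the sample labels and C57Bl6 in the methods. Per the methods they were males that entered the experiment at 5 weeks of age and spent 5 weeks with a running wheel or, as littermate controls, in identical cages without one. The 6 matching arrays of L1 DRG, 3 from running mice and 3 from mice without a wheel, served as the second level. The sources used here do not say whether the L1 and L5 ganglia of a number came from the same mice, how many animals made up a sample, or at what time of day tissue was taken. Adult titles also carry a TrkC sign, but the methods describe whole ganglia, so values are averages over sensory neurons, glia, vessel, connective tissue and blood cells, and fewer cells of a type cannot be told apart from less RNA per cell.

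DRG hold the cell bodies of the sensory neurons of trunk and limbs. Ganglion L5 supplies the hindlimb, with many proprioceptors, which report muscle length and tension, while L1 mainly supplies the trunk and hip. In mammalian cells the circadian clock is a feedback loop in which BMAL1 (gene *Arntl*) and CLOCK drive the *Per* and *Cry* genes through E-box sequences, PER and CRY proteins inhibit that drive, and nuclear receptors of the REV-ERB and ROR families act on *Arntl* through response elements termed RRE. Clock output runs partly through the PAR-bZIP factors DBP, TEF and HLF, which bind D-box sequences. BDNF is a secreted neurotrophin that signals through TrkB and is made by subsets of sensory neurons, and GABA-A receptors on the central terminals of sensory neurons carry presynaptic inhibition.

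Values are RMA expression values on a linear scale, in arbitrary units, and differences are running minus no wheel on the log2 scale with the standard error (SE) of limma's moderated fit over the 12 adult arrays. Calls were made where the p-value, adjusted by Benjamini-Hochberg over all 45037 probe sets, was under 0.05. The 3 running arrays of L5 correlated with each other at 0.9961 to 0.9971 and the 3 no-wheel arrays at 0.9936 to 0.9952. The running arrays lay nearest to no-wheel replicate 1 (0.9956 to 0.9961) and farther from replicates 2 (0.9915 to 0.9919) and 3 (0.9937 to 0.9943). Summed over 14 pan-sensory neuron markers, the running arrays ranged between 53663 and 62179 and the no-wheel arrays between 55407 and 56988, so the groups overlapped and neuronal genes were abundant on every array. Blood and muscle markers were high on 2 of the no-wheel arrays, as described below with the genes that fell.

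With running, 166 probe sets were higher at L5 (0.369% of those tested) and 50 were lower (0.111%), 216 in all (0.48%). They named 141 and 43 genes, with 4 probe sets annotated to several genes and 21 without a gene name here. Rises were of modest size, between 0.38 and 1.73 on the log2 scale with a median of 0.59, and 88 of the 166 reached 1.5 fold. Falls lay between -0.39 and -3.17 with a median of -0.59, and 26 of the 50 reached 1.5 fold. On every called probe set the 3 running arrays lay all above or all below the 3 no-wheel arrays, an order that 13.8% of all probe sets showed upward and 6.21% downward. The median difference over all probe sets was 0.022. By the thresholds of the methods (unadjusted p up to 0.02 and 1.5 fold or more), 372 probe sets differed (0.826%), 189 of them higher (0.42%) and 183 lower (0.406%), and 7367 had an unadjusted p under 0.05 (16.4%). After quantile normalization the adjusted calls were 133 higher and 103 lower.

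The number of adjusted calls depended on single arrays. It was 13, 0 and 27 without L5 running replicate 1, 2 or 3, and 1775, 7 and 68 without L5 no-wheel replicate 1, 2 or 3. In the limma fit with 0 calls, 5332 probe sets had an unadjusted p under 0.05. Leaving out an L1 array, which enters only through the shared spread, gave 183, 65 and 89 calls for running replicates 1 to 3 and 747, 70 and 136 calls for no-wheel replicates 1 to 3. A fit of the 6 L5 arrays alone called 2 probe sets, of *Bdnf* and *Tmppe*. Since the groups do not overlap on any of the 216 probe sets, leaving out an array cannot turn their sign.

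Several genes of the circadian clock changed at L5. Of 18 clock core genes listed, 16 were measured on a probe set of their own (the brightest was used for each gene), and *Per1*, *Per2*, *Per3* and *Bhlhe40* rose while *Arntl* fell. Of 13 clock output genes and targets, all measured, *Dbp*, *Ciart*, *Usp2* and *Tspan4* rose and none fell. Over all 18193 genes, 94 were called (0.517%), of which 69 rose (0.379%) and 25 fell (0.137%), and by the thresholds of the methods 0.231% were higher and 0.495% lower. The median difference was 0.29 over the core list and 0.35 over the output list, beside 0.031 over all genes. Both lists were drawn up with earlier results of these data known. The time of day at which tissue was taken is not stated for either group, and its part in these differences was not tested.

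The promoters of 4 of these genes, chosen among those with a match to E-box, D-box or RRE letters, are given first as context for the values. Binding to them was not measured. They are RefSeq promoters of build GRCm38.p6, from 250 bases before to 50 bases after the start, written 5′ to 3′ on the strand of the gene. Capitals mark an E-box (CACGTG), a D-box (TTATGTAA) or an RRE (TAGGTCA), searched on both strands, with no overlap among the matches printed. *Ciart* (chr3:95882179-95882478, minus strand) held 3 E-boxes, *Per1* (chr11:69098699-69098998, plus strand, 1 of 2 promoters) held 1 E-box, *Per3* (chr4:151044616-151044915, minus strand) held 2 D-boxes, and *Arntl* (chr7:113207261-113207560, plus strand, 1 of 2 promoters) held 1 RRE.
Ciart: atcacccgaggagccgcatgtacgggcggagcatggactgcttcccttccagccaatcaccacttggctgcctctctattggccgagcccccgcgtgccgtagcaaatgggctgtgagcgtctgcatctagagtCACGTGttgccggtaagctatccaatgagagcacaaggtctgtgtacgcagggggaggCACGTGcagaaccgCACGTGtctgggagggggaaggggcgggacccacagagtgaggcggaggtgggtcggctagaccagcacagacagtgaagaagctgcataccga
Per1: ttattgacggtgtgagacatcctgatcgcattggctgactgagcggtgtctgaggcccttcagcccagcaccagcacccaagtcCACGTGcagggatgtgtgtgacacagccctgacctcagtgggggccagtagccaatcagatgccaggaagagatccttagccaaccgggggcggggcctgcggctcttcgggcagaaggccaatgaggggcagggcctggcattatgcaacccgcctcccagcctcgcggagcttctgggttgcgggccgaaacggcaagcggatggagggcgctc
Per3: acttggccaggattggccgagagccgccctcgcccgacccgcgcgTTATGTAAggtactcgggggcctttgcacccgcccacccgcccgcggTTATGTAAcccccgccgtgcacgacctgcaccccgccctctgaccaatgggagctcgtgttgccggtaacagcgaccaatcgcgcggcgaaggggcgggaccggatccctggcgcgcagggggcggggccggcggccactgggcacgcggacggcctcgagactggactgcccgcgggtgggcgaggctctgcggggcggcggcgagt
Arntl: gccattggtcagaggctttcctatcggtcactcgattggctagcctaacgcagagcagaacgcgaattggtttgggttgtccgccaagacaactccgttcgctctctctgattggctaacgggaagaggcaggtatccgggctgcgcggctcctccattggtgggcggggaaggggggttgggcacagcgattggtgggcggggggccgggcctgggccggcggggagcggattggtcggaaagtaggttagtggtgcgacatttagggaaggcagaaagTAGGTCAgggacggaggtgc
Among 32851 promoters of this length, 7.15% held the E-box, 0.938% the D-box and 2.61% the RRE. Of the 10 clock genes with a called probe set, 7 had a RefSeq promoter here, and 3 had an E-box in at least 1 promoter (*Ciart*, *Per1* and *Tspan4*). These counts are per gene, while the percentages above are per promoter. The promoters of *Dbp* and *Usp2* held none of these letters in this window, and a match or its absence is a description of the letters only.

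The 3 *Per* genes and *Bhlhe40* rose in running mice. *Per1* had values of 222, 269 and 223 on the running arrays, against 134, 107 and 148 on the no-wheel arrays, a log2 difference of 0.88 (SE 0.12, adjusted p = 0.0159). *Per2* had values of 159.5, 154 and 188 in running mice, against 104, 101 and 100.2 without a wheel (0.71, SE 0.10, adjusted p = 0.0159). *Per3* had values of 428, 391 and 361 in running mice and 208.5, 234 and 253 without a wheel (0.76, SE 0.11, adjusted p = 0.0159). Each running array exceeded each no-wheel array for these 3 genes, and the no-wheel values of *Per2* lay within 4 units of each other. *Bhlhe40*, which encodes the E-box repressor DEC1, followed with 842, 881 and 908 in running mice and 511, 588 and 611 without a wheel (0.62, SE 0.11, adjusted p = 0.0311).

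*Arntl*, the positive arm, went the other way. Its values were 96.8, 99.3 and 98.7 in running mice, against 157, 139.6 and 139.9 without a wheel, a log2 difference of -0.56 (SE 0.086, adjusted p = 0.0180). *Npas2*, which encodes a CLOCK paralogue, had values of 24.7, 30.3 and 31.5 in running mice and 36.8, 48.1 and 39.1 without a wheel, and it missed the adjusted threshold (-0.52, adjusted p = 0.0931). *Clock* itself had a difference of 0.27 (adjusted p = 0.287), *Cry1* of -0.12 (adjusted p = 0.729) and *Cry2* of 0.46 (adjusted p = 0.120). *Nr1d1*, which encodes REV-ERBα, had values of 83.3, 92.6 and 92.5 in running mice, all above the 63.0, 72.1 and 71.1 without a wheel, but did not pass (0.38, adjusted p = 0.0742). Of the 16 core genes, the running arrays lay all above the no-wheel arrays for 8 and all below for 2, beside 2870 and 1048 of all 18193 genes.

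Of the output genes, 4 of 13 rose on their brightest probe sets. *Dbp* had values of 721, 747 and 642 in running mice, against 294, 432 and 469 without a wheel (0.84, SE 0.14, adjusted p = 0.0286), and its second probe set had a difference of 0.79 (adjusted p = 0.0286). *Ciart*, which encodes the clock repressor CHRONO, had values of 122, 116 and 105 in running mice and 70.5, 62.3 and 72.7 without a wheel (0.74, SE 0.091, adjusted p = 0.00730). *Usp2*, a ubiquitin-specific protease under clock control, had differences of 0.58 and 0.63 on its 2 probe sets (adjusted p = 0.0280 and 0.0163). *Tspan4*, a tetraspanin, had 447, 505 and 417 in running mice and 339.7, 341 and 293 without a wheel (0.49, SE 0.098, adjusted p = 0.0439). The 2 other PAR-bZIP factors had smaller differences that did not pass, *Tef* with 0.39 (adjusted p = 0.0827) and *Hlf* with 0.44 (adjusted p = 0.271). Of the 13 output genes 2 had a negative difference, *Ppp1r3c* with -0.17 (adjusted p = 0.614) and *Leo1* with -0.13 (adjusted p = 0.554), and neither passed. *Wee1*, a cell cycle kinase, differed between its probe sets, with 0.35 on the brighter one (adjusted p = 0.128) and 0.82 on the dimmer one, where the running values were 82.8, 84.8 and 98.6 and the no-wheel values 54.7, 47.7 and 48.5 (adjusted p = 0.00730).

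**Figure D1:**
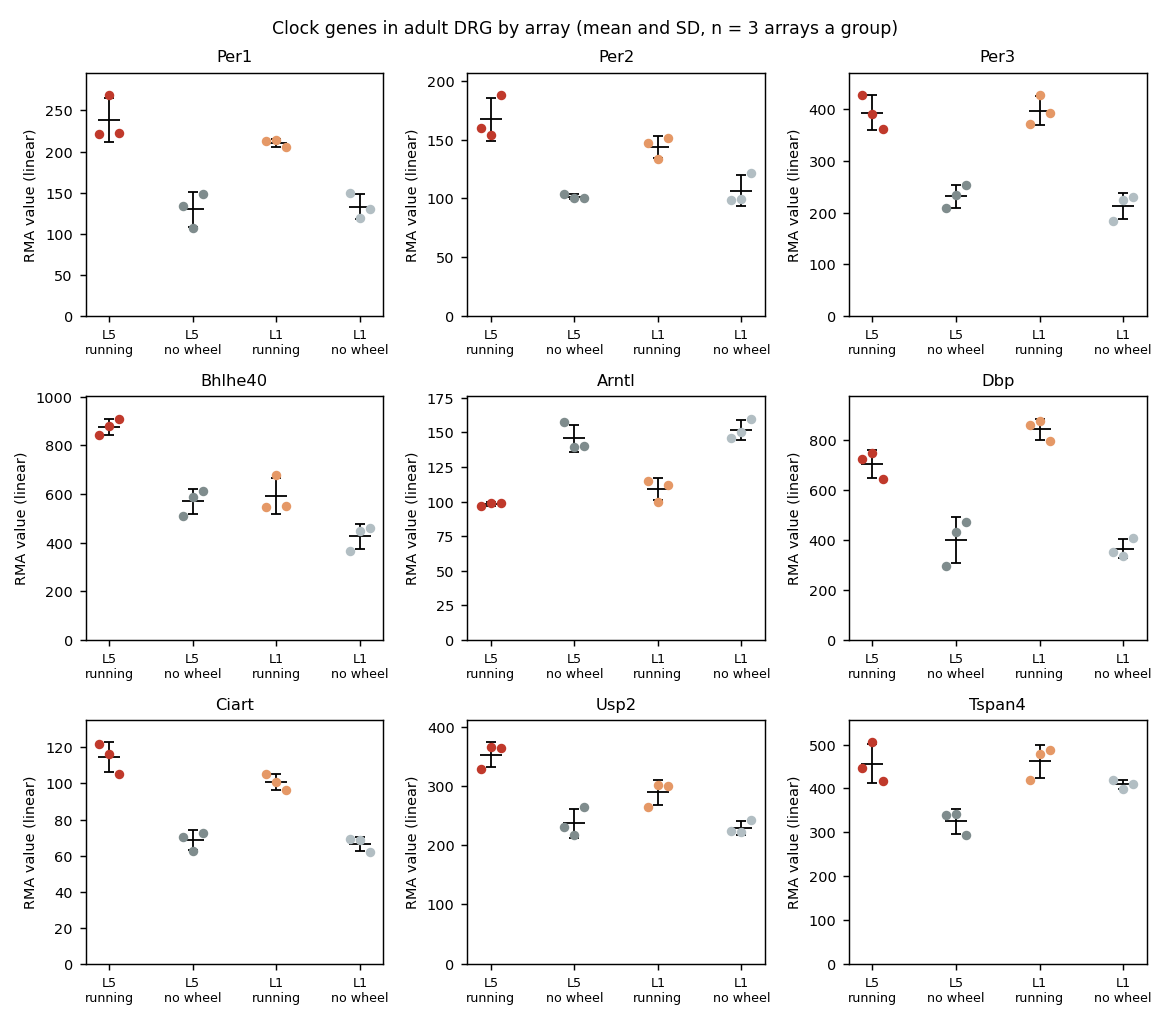
Expression values (RMA, linear scale, y axis) of 9 clock genes on each adult array, for L5 and L1 DRG, running left of no wheel. Points are arrays, and bars show the mean and SD of 3 arrays. At L5 the running arrays lie above the no-wheel arrays for 8 genes and below them for *Arntl*, which had 96.8 to 99.3 with running and 139.6 to 157 without a wheel.

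The same genes were measured at L1 on separate arrays, which may come from the same mice. There *Per1* (0.67, adjusted p = 0.0340), *Per3* (0.90, adjusted p = 0.00246), *Dbp* (1.21, adjusted p = 0.00240), *Ciart* (0.60, adjusted p = 0.0127) and *Arntl* (-0.48, adjusted p = 0.0282) passed in the direction seen at L5. *Per2* (0.44), *Bhlhe40* (0.48), *Tspan4* (0.17) and the brighter probe set of *Usp2* (0.33) had the same sign at L1 without passing. For none of these 9 genes did the test of L5 effect minus L1 effect pass. The differences ran between -0.37 (*Dbp*) and 0.32 (*Tspan4*), and the smallest adjusted p was 0.396. In every alternative fit with at least 2 arrays a group, all 9 had an unadjusted p under 0.05. They were picked by their calls in these same arrays, so such refits are no separate support. The number past the adjusted threshold was 2, 0 and 3 without L5 running replicate 1, 2 or 3. It was 9, 1 and 7 without L5 no-wheel replicate 1, 2 or 3. With the L5 arrays alone it was 0, as with blood and muscle marker means as covariates and with the methods' t-test.

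*Bdnf* had the smallest adjusted p of all named genes and rose at L5. On the dimmer of its probe sets its values were 284, 334 and 316 in running mice, against 168, 157 and 142 without a wheel, a difference of 1.00 (SE 0.11, adjusted p = 0.00588) or 2.00 fold. The brighter probe set gave 665, 754 and 740.1 in running mice and 501, 484 and 425 without a wheel (0.62, SE 0.11, adjusted p = 0.0311). The groups did not overlap on either probe set. On the dimmer probe set L1 showed no such rise, with 119, 131 and 156 in running mice and 131, 144 and 148 without a wheel (-0.065, adjusted p = 0.866). The difference between the levels on this probe set was 1.07 (SE 0.15). Its adjusted p of 0.0986 was the smallest of that test but missed the threshold, and it passed when only probe sets above the median level were tested (adjusted p = 0.0493). *Ntrk2*, which encodes the BDNF receptor TrkB, had a difference of 0.053 on its brightest probe set (adjusted p = 0.879).

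*Gabrg1*, which encodes the γ1 subunit of the GABA-A receptor, also rose at L5. On the dimmer of its probe sets it had values of 151, 143 and 154 in running mice, against 86.7, 73.0 and 87.9 without a wheel (0.86, SE 0.12, adjusted p = 0.0142). On the brighter one it had 748, 708.5 and 750.2 in running mice, all above the 506, 519 and 543 without a wheel, but the difference of 0.49 did not pass (SE 0.16, adjusted p = 0.132). The lowest running value thus exceeded the highest no-wheel value on both. At L1 the values of the dimmer probe set were 28.7, 35.3 and 37.6 in running mice and 27.1, 31.7 and 34.2 without a wheel, far below L5 and overlapping between groups, and the difference of the effects between levels was 0.74 (adjusted p = 0.201).

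Few genes of inhibitory and excitatory transmission passed. Of 9 measured GABA-A receptor subunit genes, *Gabrg1* among them, none passed on its brightest probe set. Of the 9, 8 had a positive difference, the running arrays lay all above for 4, and the median difference was 0.17. Of all 18193 genes, 10565 had a positive difference and 2870 had all running arrays above. *Gphn*, which encodes gephyrin, the scaffold of inhibitory synapses, rose with values of 858, 857 and 800.4 in running mice and 633, 645 and 643 without a wheel (0.39, SE 0.081, adjusted p = 0.0497). *Gria4*, an AMPA receptor subunit, had 1202, 1042 and 1040.0 in running mice and 743, 617 and 876 without a wheel, without passing (0.57, adjusted p = 0.0629). None of 11 sodium channel, 25 potassium channel and 16 glutamate receptor genes passed on its brightest probe set, while the potassium channel gene *Kcnd1* was called on a dimmer one (0.64, adjusted p = 0.0433). *Ntrk3* (TrkC) had a difference of 0.18 (adjusted p = 0.483) and *Ret* of 0.0090 (adjusted p = 0.986) on the brightest probe sets, and the proprioceptor marker *Pvalb* had 1616, 1853 and 1544 in running mice and 1373, 1537 and 1884 without a wheel.

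**Figure D2:**
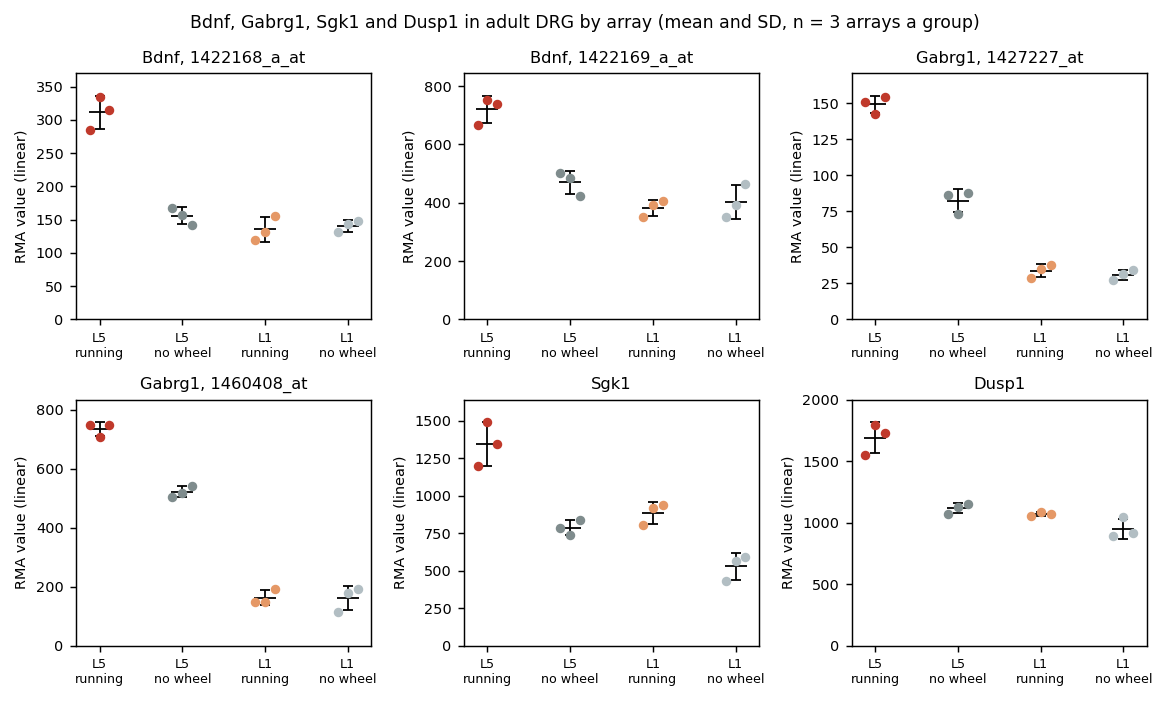
Expression values (RMA, linear scale, y axis) of *Bdnf* and *Gabrg1* (2 probe sets each), *Sgk1* and *Dusp1* on each adult array, for L5 and L1 DRG, running left of no wheel. Points are arrays, and bars show the mean and SD of 3 arrays. The dimmer probe set of *Bdnf* reads 284 to 334 on the L5 running arrays and 119 to 168 on all others.

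A pair of genes that respond to hormones and stress were among the brighter ones that rose. *Sgk1*, a serum- and glucocorticoid-induced kinase, had 1196, 1492 and 1345 in running mice, against 787, 737 and 839.5 without a wheel (0.77, SE 0.12, adjusted p = 0.0248), and it rose by the same size at L1 (0.75, adjusted p = 0.0199). *Dusp1*, an immediate early phosphatase that switches off MAP kinases, had 1553, 1799.7 and 1729 in running mice and 1072, 1132 and 1157 without a wheel (0.59, SE 0.088, adjusted p = 0.0168), against 0.17 at L1 (adjusted p = 0.465). In the same search the 7 promoters of *Bdnf* and the 1 of *Gabrg1* held no E-box, D-box, RRE or cAMP response element (TGACGTCA). Of 6 *Sgk1* promoters, 1 held an E-box. The promoter of *Dusp1* held an E-box and a cAMP response element (in 1.79% of promoters), printed here in capitals from chr17:26508423-26508722, minus strand.
Dusp1: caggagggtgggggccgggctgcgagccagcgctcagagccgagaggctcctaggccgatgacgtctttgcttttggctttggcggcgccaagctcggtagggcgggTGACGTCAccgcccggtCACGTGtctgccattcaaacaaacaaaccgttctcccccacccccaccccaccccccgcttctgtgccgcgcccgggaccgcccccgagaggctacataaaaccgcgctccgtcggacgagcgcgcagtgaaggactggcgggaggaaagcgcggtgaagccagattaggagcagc
Of the 16 glucocorticoid response genes listed, 2 rose on their brightest probe sets, *Per1* and *Sgk1*, where 0.379% of all genes rose. *Errfi1*, an inhibitor of EGF receptor signalling, rose on a dimmer probe set (0.82, adjusted p = 0.0159). *Tsc22d3*, which encodes the glucocorticoid-induced leucine zipper protein GILZ, passed on a dimmer probe set (0.44, adjusted p = 0.0497) and just missed on the brightest (0.43, adjusted p = 0.0518). Of 20 immediate early genes, *Dusp1* alone passed, and the list's median difference was 0.052.

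On the brightest probe sets, 1 of 31 axon guidance genes and 1 of 16 neurofilament and axonal cytoskeleton genes rose, and none of 18 nerve injury and regeneration genes passed. Of all genes, 0.379% rose. *Unc5b*, a netrin receptor, had 495, 607 and 541 in running mice, against 328, 324 and 357 without a wheel (0.70, SE 0.093, adjusted p = 0.0127). *Tubb3*, the neuronal β-tubulin, had 1754, 2049 and 1727 in running mice and 1426, 1215 and 1294 without a wheel (0.49, SE 0.098, adjusted p = 0.0450), and *Nmnat2*, an NAD-synthesizing enzyme that maintains axons, had a difference of 0.53 (adjusted p = 0.0311). *Rgs6*, a regulator of G-protein signalling, had 247, 205 and 267 in running mice and 126, 109.8 and 158 without a wheel (0.88, SE 0.16, adjusted p = 0.0311). In each of these the groups did not overlap. *Net1* had the largest rise of all single-gene probe sets, 1.05 (SE 0.15, adjusted p = 0.0159), at low values of 61.6, 57.7 and 59.2 in running mice and 35.5, 26.8 and 25.1 without a wheel. *Slc19a2*, a thiamine transporter, was called on 2 probe sets with 0.92 and 0.47 (adjusted p = 0.0311 and 0.0453), and *Serpina3i*, a serpin, had 35.4, 37.9 and 37.2 in running mice and 24.3, 23.7 and 22.5 without a wheel (0.65, adjusted p = 0.00730).

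Several of the larger rises were measured on a probe set that was not the brightest of its gene. This held for *Dyrk1a* (0.99), *Arih1* (0.91), *Usp22* (0.87) and *Tmppe* (0.87), which encode a protein kinase, a ubiquitin ligase, a deubiquitinase and a phosphoesterase-domain protein. For some genes the brightest probe set differed from the called one. *Errfi1* had 0.82 on the called probe set and 0.27 on the brightest, the gap junction gene *Gja1* had 0.72 and 0.032, and the water channel gene *Aqp4* had 0.52 and 0.083. *Snap25*, which encodes a protein of the synaptic vesicle release machinery, was called lower on 1 probe set (-1.13) while the brightest gave 0.027. The largest difference upward on any probe set, 1.73 (adjusted p = 0.0311), was that of a probe set annotated to the X-linked genes *Xlr4a*, *Xlr4b* and *Xlr4c* together, and it rose at L1 too (2.67, adjusted p = 0.00240).

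The largest fall was of a white blood cell gene, and several other falls were of such genes. *S100a9*, a calcium-binding protein of neutrophils, had 91.3, 38.2 and 44.9 in running mice, against 174, 1378 and 481 without a wheel, a difference of -3.17 (SE 0.65, adjusted p = 0.0457). *Adgre1*, which encodes the macrophage antigen F4/80, had 232, 215 and 208 in running mice and 324, 536 and 359.8 without a wheel (-0.87, SE 0.15, adjusted p = 0.0311). *Ifi204*, an interferon-inducible gene, fell by 1.24 (adjusted p = 0.0180) and *Hcls1*, a cortactin relative of blood cells, by 0.79 (adjusted p = 0.0311), both at values under 50. For *S100a9* and *Adgre1* the highest value was that of no-wheel replicate 2.

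Markers of cells other than neurons moved with these genes. Over the 7 measured members of an erythroid and blood list, the summed value was 818, 469.5 and 645 on the running arrays, against 1244, 8004 and 3080 on the no-wheel arrays, and all 7 had negative differences with a median of -1.93. *S100a8* (-2.78, adjusted p = 0.0701), *Ngp* (-2.47, adjusted p = 0.0850), *Slc4a1* (-1.93, adjusted p = 0.0611) and *Camp* (-1.66, adjusted p = 0.115) did not pass, and *Hba-a1*, a globin, stayed between 27.5 and 31.5 in running mice and 29.6 and 34.4 without a wheel. Over 12 skeletal muscle genes (without *Pvalb*, which proprioceptors express) the sum was 1648, 490.2 and 587 on the running arrays and 1233, 1307 and 8213 on the no-wheel arrays, so the groups overlapped and replicate 3 stood apart. Their median difference was -1.26, all 12 were negative and none passed. Over 16 macrophage genes the sum was 4545, 4162 and 3889.7 in running mice and 4365, 7514 and 5216 without a wheel, with a median difference of -0.35, 15 negative and *Adgre1* called. Of all 18193 genes, 7628 had a negative difference at L5. At L1 the blood, muscle and macrophage medians were -0.52, 0.21 and 0.013. The part of these cells in the 216 calls was not tested. With the blood and muscle marker means as covariates 5 probe sets were called, none of them among the 216. All 216 kept their sign and 197 an unadjusted p under 0.05, but they had been chosen for a low p in these same arrays. The blood mean included *S100a9*, itself called, and the muscle mean included *Pvalb*. Without no-wheel replicates 2 and 3, 4 probe sets were called.

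**Figure D3:**
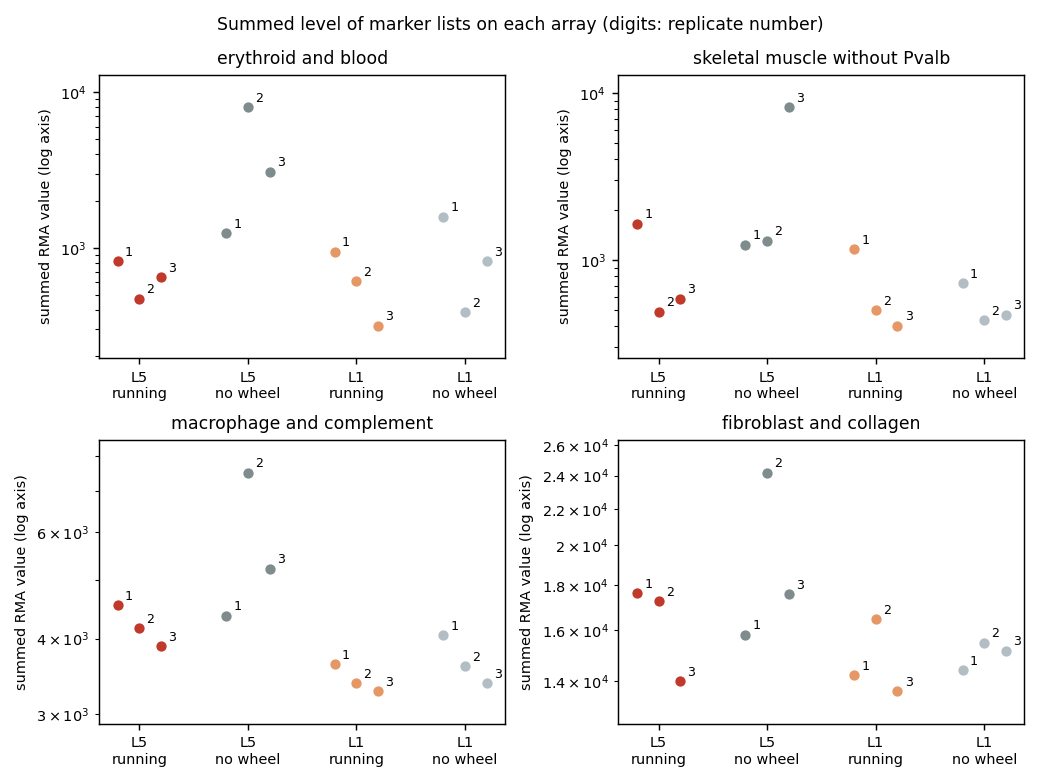
Summed RMA values (log y axis) of 4 marker lists on each adult array, for L5 and L1 DRG, running left of no wheel. Each point is 1 array, and its digit is the replicate number. L5 no-wheel replicate 2 is highest for the blood list at 8004 and for the macrophage list at 7514, and replicate 3 is highest for the muscle list at 8213.

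Not all falls were of blood cell genes. For *Hmgb2* and the brighter probe set of *Serpinh1*, the highest value was again that of no-wheel replicate 2, which was high in blood markers. The part of that array in these falls was not tested. *Serpinh1*, which encodes the collagen chaperone HSP47, fell on both probe sets, with 387, 363 and 312 in running mice, against 512, 808 and 580.4 without a wheel on the brighter one (-0.82, SE 0.15, adjusted p = 0.0311), and had a difference of -0.71 at L1 (adjusted p = 0.0689). Collagen and fibroblast genes had a median difference of -0.28 with 14 of 17 negative, beside 7628 of all 18193 genes, and none called. Their sum was 24197 on no-wheel replicate 2, against 15807 and 17588 on no-wheel replicates 1 and 3. *Malat1*, a long nuclear RNA, had 1249, 1283 and 1667 in running mice and 2326, 2083 and 2059.9 without a wheel (-0.63, SE 0.12, adjusted p = 0.0311) and fell at L1 as well (-0.83, adjusted p = 0.00679), but its 7 probe sets ranged between -0.80 and 0.28 at L5. *Kif5b* (-0.67) and *Kifap3* (-0.80), which encode a kinesin heavy chain and a kinesin-associated protein, fell on probe sets that were not their brightest. *Hmgb2*, a chromatin protein of dividing cells, had 98.0, 116 and 111 in running mice and 159, 296 and 191 without a wheel (-0.95, SE 0.19, adjusted p = 0.0431). None of 13 measured cell division genes passed, among them the proliferation marker *Mki67*, which had a difference of -1.35 (adjusted p = 0.0671).

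At L1, 109 probe sets were called (0.242%), 40 higher (0.0888%) and 69 lower (0.153%), with 5283 at an unadjusted p under 0.05 (11.7%). The thresholds of the methods gave 0.366%, with 0.14% higher and 0.226% lower, and the running arrays lay all above the no-wheel arrays for 8.49% of probe sets and all below for 7.61%. The 2 levels shared 18 calls, all in the same direction, which made 8.33% of the calls at L5 and 16.5% of those at L1. They included *Per1*, *Per3*, *Ciart*, *Arntl*, *Usp2*, both probe sets of *Dbp*, *Sgk1*, *Malat1*, *Kif5b* and *Acer2*, an alkaline ceramidase (0.81 at L5 and 0.74 at L1). Of the probe sets higher at L5, 68.7% had a positive difference at L1 (median 0.11), where 54.1% of all probe sets did. Of those lower at L5, 84% had a negative difference at L1 (median -0.18), where 45.9% of all did. The L1 count was 828, 20 and 29 without L1 running replicate 1, 2 or 3 and 71, 18 and 66 without L1 no-wheel replicate 1, 2 or 3.

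No probe set passed the test of L5 effect minus L1 effect (0%, smallest adjusted p = 0.0986), with 5169 at an unadjusted p under 0.05 (11.5%), so no gene was shown to respond at one level and not at the other. By the thresholds of the methods, 593 differed between levels (1.32%), 423 with the larger value at L5 (0.939%) and 170 with the smaller (0.377%). Without L5 no-wheel replicate 1, 216 passed, without L1 running replicate 1, 7 did, and without L5 running replicate 3 or L5 no-wheel replicate 3, 1 did. *Net1*, *Serpina3i*, *Tubb3* and the dimmer probe sets of *Bdnf* and *Gabrg1* had L1 differences between -0.065 and 0.12. This range leaves out the brighter probe sets of *Bdnf* and *Gabrg1*.

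**Figure D4:**
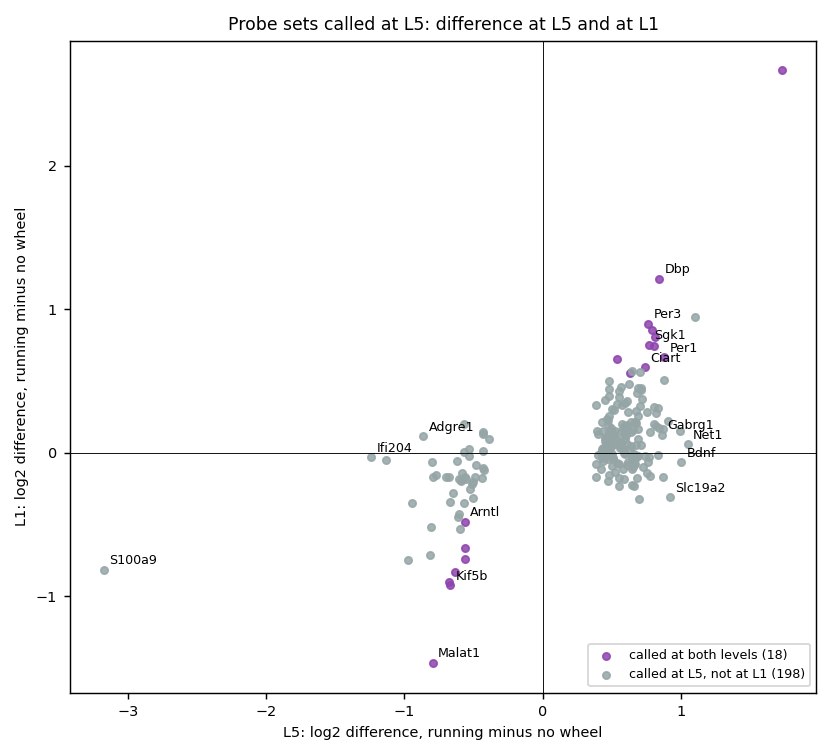
Log2 difference (running minus no wheel) of the 216 probe sets called at L5, at L5 (x axis) and at L1 (y axis). Purple points are the 18 called at both levels and grey points the rest. *Dbp*, *Per1*, *Per3* and *Ciart* are above 0 on both axes, while the dimmer probe set of *Bdnf* (-0.065) and *Net1* (0.060) are near 0 at L1.

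Proprioceptors were sorted in this series at birth (p0) from TrkC-GFP reporter mice, and their enrichment over TrkC-GFP negative cells gave a measure that shares no array with the running comparison. Of the 166 probe sets higher with running at L5, 34 (20.5%) were enriched in p0 TrkCon neurons at an unadjusted p of at most 0.02 and 1.5 fold, and 8 (4.82%) in TrkCoff cells. Of the 50 lower ones, 2 (4%) were enriched in TrkCon neurons and 4 (8%) in TrkCoff cells. Among all probe sets the shares were 7.17% and 5.55%. At 2 fold the share of the higher ones was 15.1%, beside 4.29% of all. The called probe sets were brighter than most, with median levels at percentiles 63.6 (higher) and 64.0 (lower), and these shares are descriptions without a test. Among the 34 were *Gabrg1* (p0 log2 difference of TrkCon minus TrkCoff, 2.47), *Lgi3*, a secreted relative of the LGI1 synapse protein (3.21), *Usp2* (2.02), *Sgk1* (1.55), *Unc5b* (1.16), *Bhlhe40* (1.08) and *Gphn* (0.88), while the dimmer probe set of *Bdnf* had 0.22.

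The 50 gene lists held 657 measured genes and were drawn up with earlier results known. At L5, 18 of these genes were called on the brightest probe set, where 94 of all 18193 genes were (0.517%). Of the 18, 13 were higher and 5 lower, and 9 were the clock genes above. The others were *Sgk1*, *Dusp1*, *Bdnf*, *Unc5b*, *Tubb3*, *S100a9*, *Adgre1*, *Serpinh1* and *Malat1*. No member of the nociceptor, cutaneous mechanoreceptor, proprioceptor, Schwann cell, satellite glia, endothelial, oxidative phosphorylation, mitochondrial biogenesis, glycolysis, sterol synthesis, hypoxia or unfolded protein response lists passed on its brightest probe set. Of these lists, *Gabrg1* (proprioceptor), *Gja1* (satellite glia), *Aldoc* (glycolysis, 0.59) and *Slc2a1* (hypoxia, 0.59) were called on a dimmer one. For 12 of 13 glycolysis genes the difference was positive (median 0.15), as for 14 of 15 sterol synthesis genes (median 0.12), and at L1 these medians were 0.18 and -0.0081. Of all 18193 genes, 10565 had a positive difference at L5. Proprioceptor markers had a median of 0.18 with 6 of 9 positive, and among them *Pth1r*, the parathyroid hormone receptor, had 264, 244 and 224 in running mice, above the 145, 151 and 219 without a wheel (0.53, adjusted p = 0.0951).

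**Figure D5:**
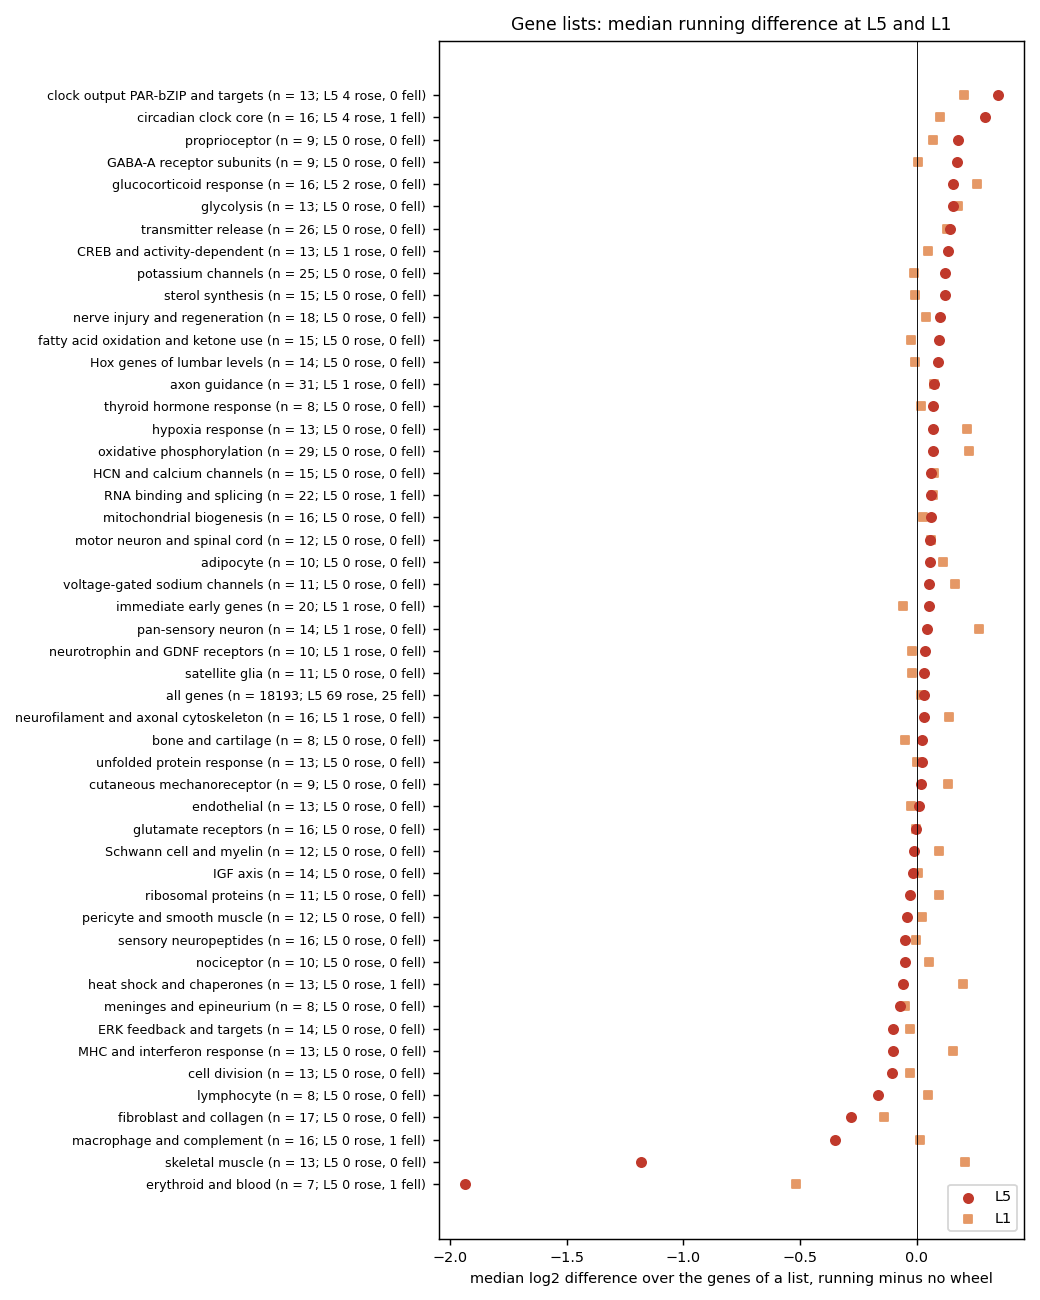
Median log2 difference (running minus no wheel, x axis) over the measured genes of 49 lists and of all genes at L5 (circles) and L1 (squares), with the number of genes and of L5 calls beside each name. The 2 clock lists are at the top with 0.35 and 0.29, and blood and muscle lists are at the bottom with -1.93 and -1.18, where all genes have 0.031.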

How the data were processed

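The authors hybridized amplified RNA to Affymetrix Mouse Genome 430 2.0 arrays and, per the methods and the submitters' processing notes, made RMA values with the package affy in R 2.9 (MAS5 present calls were not used here). The deposited intensity values are linear, although log2 values had been planned for. The sources used here do not state if RMA was run once over every array. Values were converted to log2 without a pseudocount. Of 45101 probe sets, 64 controls were left out. The platform annotation named 1 gene for 34945 of the tested probe sets, several for 932 and none for 9160, and each gene was counted on its brightest probe set over the 12 adult arrays. A mean per group was fitted to these 12 arrays with limma 3.58.1 in R 4.3.3 (lmFit, eBayes), with p-values adjusted by Benjamini-Hochberg over all 45037 probe sets. Enrichment at p0 came from a separate fit of 16 arrays of pooled lumbar DRG. The sources do not say that replicates were separate animals, so p-values measure the spread between samples, which may be technical, and 3 arrays per group limit the precision.

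Named were the 10 largest rises and falls among called single-gene probe sets with no overlap, up to 4 called members of each list (or up to 3 with the smallest unadjusted p of at most 0.02), all clock genes, the neurotrophin receptors, *Gabrg1*, and the smallest p between levels. *Nmnat2*, *Acer2*, *Lgi3*, *Snap25*, *Gja1*, *Aqp4*, *Errfi1*, *Aldoc*, *Slc2a1*, *Kcnd1*, *Kif5b*, *Pvalb*, *Hba-a1*, *Gphn*, *Tsc22d3*, *S100a8*, *Ngp*, *Slc4a1*, *Camp*, the *Xlr4* probe set, genes called in alternatives were added after their values were seen. The members and lists were chosen with earlier results of these data known. Alternatives were the L5 arrays alone, a filter on dim probe sets, quantile normalization, median centring, 16 added before log2, a replicate block, array weights, each array left out, the methods' t-test and, chosen after seeing the data, marker covariates and both outlying no-wheel arrays left out. Fits were tested on simulated data with independent normal noise and no outlying arrays. That test cannot show how calls behave with the outlying arrays seen here.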

Additional observations from a re-analysis of the deposited data

Results flagged for a closer look

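For 4 of the probe sets chosen by the naming rule every running array lay on one side of the no-wheel arrays at L5 and on the opposite side at L1. Of these, *Cpeb2*, *Tmem183a* and *Spr* were named for a small p between levels, a choice that favours opposite directions. The share of all probe sets with this opposite order was not counted. Taken singly, the running arrays lay all above for 13.8% of all probe sets at L5 and 8.49% at L1. They lay all below for 6.21% at L5 and 7.61% at L1. *Stx1a*, which encodes syntaxin 1A of the synaptic release machinery, had 855, 857 and 869.6 in running mice against 1109, 1022 and 985 without a wheel at L5, but 1532, 1527 and 1545 against 1464, 1353 and 1384 at L1, and the L5 effect minus the L1 effect was -0.40 (adjusted p = 0.238). *Cpeb2*, a regulator of translation, had 64.0, 70.1 and 78.9 in running mice against 57.5, 61.5 and 45.9 without a wheel at L5, but 44.3, 41.6 and 48.1 against 62.6, 66.9 and 73.3 at L1, a difference between the effects of 0.97 (adjusted p = 0.154). *Tmem183a*, a membrane protein gene, had a difference of 0.78 (adjusted p = 0.154) and *Spr*, which encodes the sepiapterin reductase of tetrahydrobiopterin synthesis, one of 0.70 (adjusted p = 0.154). The glucose transporter gene *Slc2a1*, on a dimmer probe set outside that rule, had the same order, with 340.3, 366 and 344 in running mice against 264, 206 and 232.5 without a wheel at L5, but 219.7, 258 and 267 against 270.3, 292 and 282 at L1, a difference between the effects of 0.77 (adjusted p = 0.154). No difference between levels passed the adjusted threshold for these genes.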

How the results depend on the processing

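Counts of calls moved with the alternatives. At L5, 216 became 2 with the L5 arrays alone (*Bdnf* and *Tmppe*), 391 (308 higher, 83 lower) with probe sets above the median level, 93 with the replicate block, 883 with array weights, 5 with marker covariates (*Inmt*, *Adam12*, *Plcb4*, *Kcnj13* and 1 unnamed), 4 without no-wheel replicates 2 and 3 (*Ppbp*, *Cog4*, *Dbp* and a probe set of *Zfx* and *Zfa-ps*), 0 to 1775 with 1 array left out, and 0 with the methods' t-test, where 5302 had an unadjusted p under 0.05. The share of higher calls was 76.9% and became 56.4% after quantile normalization, and 163 of its 236 calls were shared. At p of at most 0.02 and 1.5 fold, 372 became 233 with the filter on dim probe sets, 180 with 16 added, 119 with the t-test and 233 to 923 with 1 array left out. Of the listed genes, 18 called became 0 with the L5 arrays alone, with covariates and with the t-test, 36 with array weights, 1 without no-wheel replicates 2 and 3 and 0 to 60 with 1 array left out. At L1, 109 became 68 with the filter, 56 with 16 added, 1249 with array weights, 0 with the t-test and 18 to 828 with 1 array left out. The test between levels, with 0 calls, had 2 with the filter (*Bdnf* and 1 unnamed), 83 with array weights, 3 without no-wheel replicates 2 and 3 (*Ppbp*, *Dnajc21* and the *Zfx* probe set) and 0 to 216 with 1 array left out. The other p0 threshold gave 15.1% in place of 20.5%. Except where the construction shows it (fewer arrays or probe sets), the cause was not tested.

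Same-numbered L5 arrays of the 2 groups correlated in their deviations from the group means at -0.109 to 0.112 (other numbers -0.174 to 0.111). Between L5 and L1 the same-numbered arrays correlated at -0.059 to 0.202 in running mice (other numbers -0.231 to 0.202). Without a wheel they did so at -0.241 to -0.054 (other numbers -0.117 to 0.212). These values showed no pairing by number, but 3 arrays a group cannot exclude one. The test between levels treated all arrays as independent. Some differences at L5 changed sign. With covariates these were *Col6a2* (0.022 in place of -0.78), *Ptprc* (0.14 in place of -0.93), *Sdha* (-0.0055 in place of 0.37), *Ntrk2* (-0.18), *Ntrk3* (-0.13), *Ret* (-0.32), *Clock* (-0.0076), *Csnk1d* (-0.18), *Ppp1r3c* (0.21) and *Cipc* (-0.16). After quantile normalization they were *Ntrk2* (-0.014), *Ret* (-0.033), *Csnk1e* (-0.017) and *Cipc* (-0.018). With 1 array left out, *Ret* ranged between -0.065 (without no-wheel replicate 3) and 0.058, *Ntrk2* between -0.0057 (without no-wheel replicate 2) and 0.10, and *Cry1* between -0.22 and 0.020 (without running replicate 3). Without no-wheel replicates 2 and 3, *Ret* had -0.042, *Ppp1r3c* 0.19 and *Cipc* -0.055. None of these genes was called. *Net1* and *Serpina3i* were measured at low signal.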
